A study of Mus musculus with 18 samples.

Results

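The 10 genes described here encode the TGF-beta cytokines (Tgfb1, Tgfb2 and Tgfb3), the receptors that read them (Tgfbr1, Tgfbr2 and Tgfbr3) and the latent TGF-beta binding proteins (Ltbp1, Ltbp2, Ltbp3 and Ltbp4). They were chosen by name, as the rows of the count table whose Ensembl identifiers carry these symbols, and they are 10 of the 48795 rows. All 10 passed the filter on low counts, which kept 15436 genes. The rule itself uses names and no measured value, but the 10 genes and the rule were chosen with earlier results of these data known.

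RNA was sequenced from myotubes of C2C12, a mouse myoblast line that fuses into multinucleate fibres, after 5 days in 2% horse serum. The 18 libraries formed 6 groups of 3. Controls had 0.1% DMSO for 36 h. Over the same 36 h, 2 groups without glucocorticoid had 10 µM or 20 µM ginsenoside Rc, a saponin made by ginseng. The dexamethasone group had 12 h of 0.1% DMSO and then 24 h of 200 µM dexamethasone, a synthetic glucocorticoid, and the last groups had 12 h of ginsenoside Rc at 10 µM or 20 µM before the same 24 h of dexamethasone. The labels name 1 cell line and no other cell type, so these values describe that line and not muscle tissue. The labels do not say if ginsenoside remained in the medium once dexamethasone was added, and they record DMSO only for the groups without ginsenoside. They also do not say if the 3 libraries of a group are separate cultures, so p-values measure only the spread among libraries, which may be technical.

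TGF-beta is made as a precursor and leaves the cell still wrapped in its own propeptide, which keeps it inactive. In most cells the propeptide is linked to a latent TGF-beta binding protein that anchors the complex in the extracellular matrix until proteases, integrins or matrix proteins release the cytokine. Free ligand binds the type II receptor, which recruits and phosphorylates the type I receptor, which in turn phosphorylates SMAD proteins. In muscle the pathway restrains the fusion of myoblasts and drives the deposition of matrix.

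Libraries held 32350889 to 45388609 expected counts, and each of the 10 genes had at least 559 counts in every library, the lowest being those of Tgfbr3. The known glucocorticoid targets were higher in the dexamethasone libraries, with log2 fold changes (± SE) of 4.17 ± 0.05 for Fkbp5, 3.26 ± 0.06 for Tsc22d3, 5.26 ± 0.13 for Klf15 and 1.92 ± 0.09 for Per1. The 12 myotube markers were all detected, with a summed level of 20476 to 23108 counts per 1000000 (CPM) without and 21174 to 23712 CPM with dexamethasone, and 8 of them were higher and 3 lower in the dexamethasone group than in controls. The 7 markers of undifferentiated myoblasts summed to 492 to 538 CPM and 483 to 539.7 CPM, with 4 higher and 3 lower. The 5 markers of dividing cells summed to 138 to 161 CPM without and 14.8 to 28.9 CPM with dexamethasone, and all 5 fell. The 6 fibroblast markers summed to 4080.2 to 5554 CPM and 1966 to 2561 CPM, with 4 of 5 tested lower and Pdgfra, named after its value was seen, higher. Endothelial markers summed to at most 1.21 CPM and macrophage markers to at most 5.19 CPM in any library, and 1 of 5 and 2 of 5 of them stayed under 3 counts throughout. Of 5 adipocyte markers 4 stayed under 3 counts, and Fabp4 alone brought the sum to between 3.18 and 4.14 CPM with dexamethasone. The part of dividing, myoblast-like or fibroblast-like cells in the results below was not tested, and in these bulk libraries fewer cells of a type and less RNA per cell cannot be told apart. Replicate 2 of the 20 µM group stood apart, with 2.79% of its counts from mitochondrial genes against 1.26% to 1.91% in the other 17 libraries. Member results that use it are given without it in a paragraph of their own after the 20 µM comparisons.

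Every one of the 10 genes differed between the dexamethasone and control groups. Tgfbr1, Tgfbr3 and Ltbp1 rose, and all 3 ligands, Tgfbr2, Ltbp2, Ltbp3 and Ltbp4 fell (edgeR quasi-likelihood test with Benjamini-Hochberg adjustment over all genes, threshold 0.05). Dexamethasone changed 43.8% of all 15436 genes at this threshold, 20.6% higher and 23.2% lower, so that share is the background for the count of 10. It includes genes with fewer counts than these 10, and a share among genes of like counts was not taken. Without the composition factor that corrects library sizes for a few dominant genes, the median of all genes moved from -0.01 to -0.07 on the log2 scale and 2368 genes rose and 4393 fell, against 3177 and 3578, while the 10 genes kept their calls and directions. The same 10 genes passed in the same direction at 10 µM ginsenoside, where 44.2% of genes passed (21.1% higher, 23.0% lower), and at 20 µM, where 48.9% passed (23.5% higher, 25.4% lower), the latter also without replicate 2 of the 20 µM group. Over all 3 comparisons the 9 libraries with dexamethasone lay wholly above or below the 9 without in 8 of the 10 genes, Ltbp1 and Ltbp4 being the exceptions, against 32.6% of all genes. The comparisons use no library in common, and 35.0% of all genes passed in 1 direction in all 3. No library of the dexamethasone group overlapped a control library in any of the 10 genes, as was so for 59.3% of all genes, and the same held for all 10 at 10 µM (59.7% of all genes) and at 20 µM (50.1%).

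**Figure D1:**
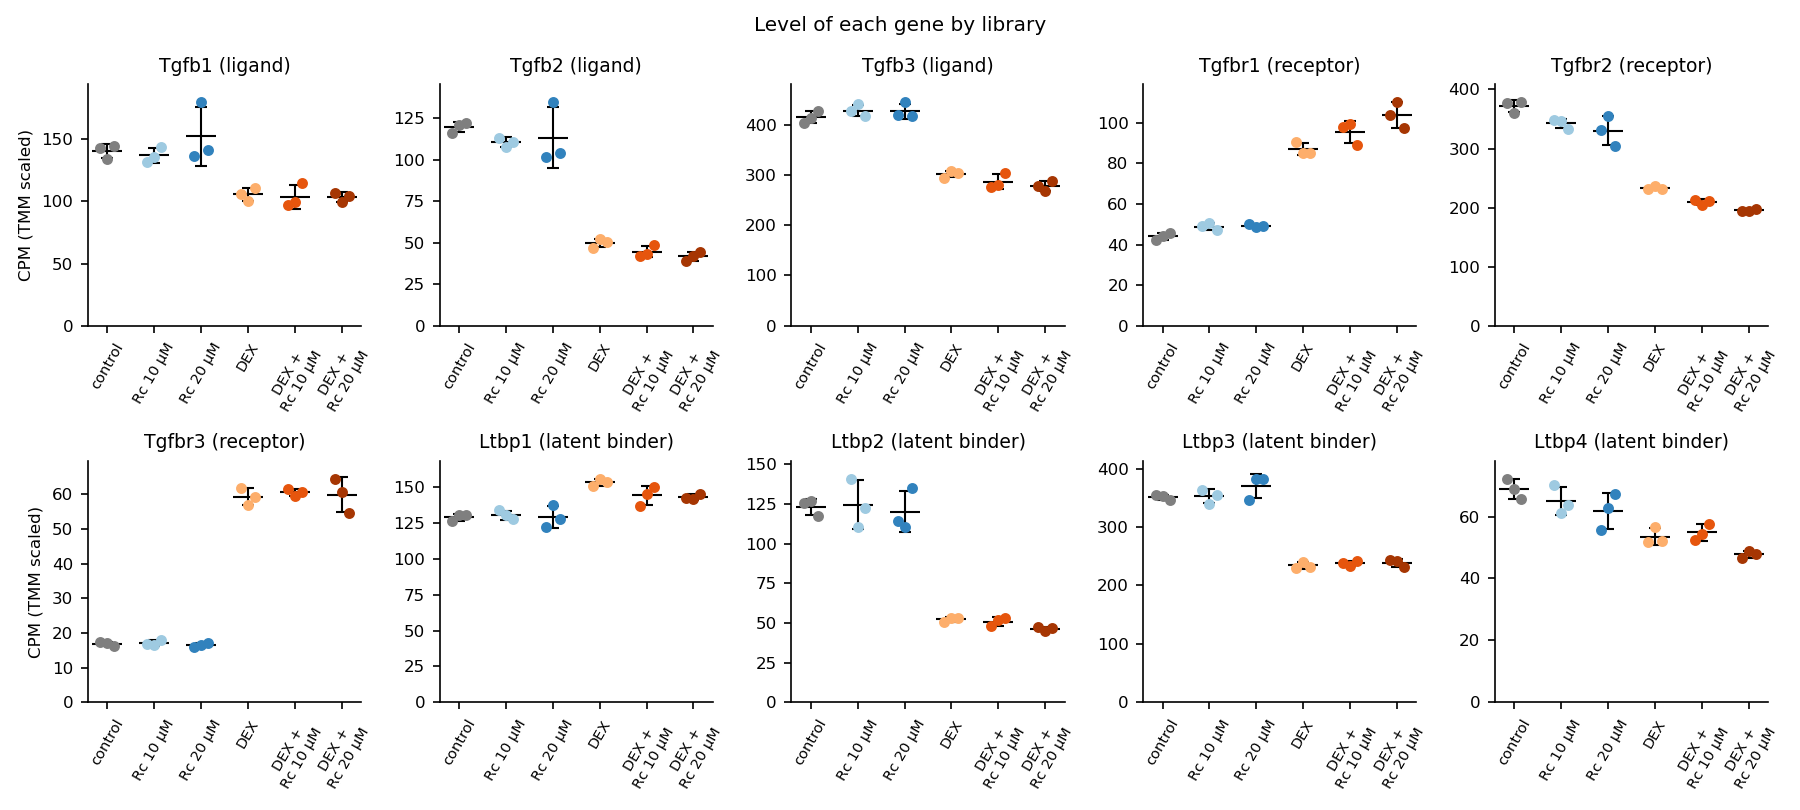
Level of each gene in CPM (TMM scaled, linear axis from 0) in all 18 libraries, 1 point per library, with the mean as a horizontal mark and the SD of 3 libraries as an error bar. In 8 of the 10 panels the 9 libraries with dexamethasone lie wholly above or below the 9 without. Ltbp1 and Ltbp4 are the panels where the 2 sets overlap.

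The ligands all fell, and Tgfb2 fell most. Tgfb2 (chr1:186622792-186705989, minus strand, on build GRCm38) encodes the TGF-beta isoform that depends most on betaglycan, the product of Tgfbr3, to reach its receptors. Its level was 116, 121 and 122 CPM in the control libraries and 47.2, 52.1 and 50.6 CPM in the dexamethasone libraries. With ginsenoside alone it was 113, 108 and 111 CPM at 10 µM and 102, 135 and 104 CPM at 20 µM. With both agents it was 42.3, 43.3 and 48.8 CPM at 10 µM and 39.2, 42.2 and 44.6 CPM at 20 µM. Each library with dexamethasone was below every library without it, and the highest value of all came from replicate 2 of the 20 µM group. The mean fell from 119.7 ± 3.09 CPM to 50.0 ± 2.53 CPM (SD, n = 3 each), which is 2.40-fold lower, with a log2 change of -1.26 ± 0.09 (SE) and an adjusted p of 1.30e-09. At 10 µM and 20 µM ginsenoside the log2 changes were -1.31 ± 0.09 and -1.43 ± 0.09, and the latter was -1.29 without replicate 2 of the 20 µM group.

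Tgfb1 (chr7:25687002-25705077, plus strand) encodes the isoform most often measured in fibrosis and immune regulation. Control libraries held 143, 134 and 145 CPM and dexamethasone libraries 106, 100.4 and 110.4 CPM, and every value of the latter was lower. The log2 change was -0.41 ± 0.09, a 1.33-fold lower level (adjusted p = 0.000719), and it was -0.40 ± 0.09 at 10 µM and -0.56 ± 0.09 at 20 µM. In the 20 µM group without dexamethasone the libraries read 136, 179.6 and 141 CPM, so replicate 2 alone lay above every other library, and without it the change at 20 µM was -0.42 (adjusted p = 6.04e-06). Tgfb3 (chr12:86056745-86079041, minus strand), the isoform best known for its part in palate development, read 404, 413 and 427 CPM in controls and 295, 308 and 303 CPM with dexamethasone. Its log2 change was -0.46 ± 0.05 (adjusted p = 3.49e-07), -0.58 ± 0.05 at 10 µM and -0.62 ± 0.05 at 20 µM. The libraries of the 3 dexamethasone groups ranged from 268 to 308 CPM and all lay below the 404 to 444 CPM of the others. Tgfb3 shares 5149 bases with Ttll5 on the opposite strand, and Ttll5 fell from 60.1 to 36.1 CPM. The strand setting of the counting is not stated, so reads in that overlap cannot be assigned with certainty.

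The starts of these genes differ in sequence. They are shown as a description, and whether they bear on the responses was not tested. The 250 bases before the start were taken from RefSeq (GRCm38.p6), which matched 8 of the 10 genes with 12 windows, and are written 5′ to 3′ on the gene's strand. Capitals mark a TATAAA box in Tgfb2 and GGGCGG boxes, on either strand, in Tgfb1 and Tgfbr1. Tgfb3 and Tgfbr3 were not matched.
Tgfb2 promoter: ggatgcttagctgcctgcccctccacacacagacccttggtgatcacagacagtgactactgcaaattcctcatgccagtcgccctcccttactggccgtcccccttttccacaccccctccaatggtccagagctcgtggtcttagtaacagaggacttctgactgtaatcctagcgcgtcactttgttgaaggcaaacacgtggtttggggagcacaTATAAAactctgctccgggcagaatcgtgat
Tgfb1 promoter: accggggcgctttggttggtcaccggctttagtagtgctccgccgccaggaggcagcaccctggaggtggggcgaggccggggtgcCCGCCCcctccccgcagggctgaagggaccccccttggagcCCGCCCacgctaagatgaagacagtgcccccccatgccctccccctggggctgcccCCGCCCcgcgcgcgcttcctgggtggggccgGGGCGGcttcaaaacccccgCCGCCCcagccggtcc
Tgfbr1 promoter: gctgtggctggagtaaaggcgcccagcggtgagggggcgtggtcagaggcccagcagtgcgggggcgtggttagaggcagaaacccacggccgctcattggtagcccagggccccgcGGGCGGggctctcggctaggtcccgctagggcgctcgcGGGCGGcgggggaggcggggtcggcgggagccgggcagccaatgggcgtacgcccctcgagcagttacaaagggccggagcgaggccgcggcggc
Tgfbr2 promoter: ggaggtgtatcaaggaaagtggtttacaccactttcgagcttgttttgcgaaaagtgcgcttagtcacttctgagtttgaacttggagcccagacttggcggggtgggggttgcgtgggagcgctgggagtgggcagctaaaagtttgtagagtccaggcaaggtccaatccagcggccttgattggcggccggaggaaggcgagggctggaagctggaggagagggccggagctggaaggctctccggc
The Tgfb2 window (chr1:186705990-186706239, minus strand) is 53.6% G and C and holds TATAAA beginning 31 bases before the start, a motif in 12.4% of the 32851 windows of all genes. The Tgfb1 window (chr7:25686752-25687001, plus strand) is 75.2% G and C, against a median of 52.4% over all windows, with 5 GGGCGG matches. The first Tgfbr1 window (chr4:47352972-47353221, plus strand) is 74.8% G and C with 2 such matches, and the Tgfbr2 window (chr9:116175364-116175613, minus strand) is 58.4% with none. GGGCGG, the core of the box bound by Sp-family factors, occurs in 32.7% of all windows and in 6 of the 12 windows here. These come from Tgfb1, Tgfbr1, Ltbp2 and Ltbp4. They include Ltbp4 windows that overlap each other (starts at 27333649 and 27333664), so the same stretch is counted more than once. The full glucocorticoid response element was searched as GNACA and TGTNC spaced by 3 bases of any kind, found in 0.387% of all windows, and a shorter receptor site as AGAACA, found in 16.1%, which overlaps the left arm of the full element. Neither sequence, nor the SMAD palindrome GTCTAGAC (0.167%), nor the AP-1 motif TGANTCA (6.75%) occurred in any of the 12 windows on either strand. The cyclic AMP response element TGACGTCA, in 1.55% of all windows, occurred once, in Ltbp1, beginning 73 bases before the start. The motifs were chosen after the sequences and fold changes had been seen. These matches describe letters in a short window only.

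The receptors divided, with the type I receptor and betaglycan higher and the type II receptor lower. Tgfbr3 (chr5:107106570-107289629, minus strand) encodes betaglycan, a co-receptor without kinase activity that presents ligand, above all TGF-beta2, to the type II receptor. It read 17.4, 17.2 and 16.3 CPM in controls and 61.8, 57.0 and 59.3 CPM with dexamethasone. The groups with ginsenoside alone read 16.9, 16.4 and 18.1 CPM at 10 µM and 15.9, 16.6 and 17.0 CPM at 20 µM. With both agents it read 61.6, 59.4 and 60.6 CPM at 10 µM and 64.5, 60.8 and 54.5 CPM at 20 µM. All 9 libraries with dexamethasone were at least 54.5 CPM and all 9 without were at most 18.1 CPM, and within each set the ginsenoside groups overlapped the group without it. The rise was 3.50-fold, a log2 change of 1.81 ± 0.06 (adjusted p = 7.13e-14), and 1.82 ± 0.06 and 1.86 ± 0.06 at the 2 ginsenoside doses.

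Tgfbr1 (chr4:47353222-47414931, plus strand) encodes the type I receptor kinase, ALK5, which phosphorylates SMAD2 and SMAD3. Control libraries read 42.2, 44.3 and 45.7 CPM and dexamethasone libraries 90.6, 85.4 and 85.3 CPM. With ginsenoside alone the values were 48.9, 50.5 and 47.0 CPM at 10 µM and 50.3, 48.5 and 49.4 CPM at 20 µM, and with both agents 97.9, 99.2 and 89.0 CPM and 104, 110.1 and 97.2 CPM. Each ginsenoside library without dexamethasone lay above each control library, and each library with 20 µM and dexamethasone lay above each with dexamethasone alone. Dexamethasone gave a 1.98-fold higher level, a log2 change of 0.98 ± 0.06 (adjusted p = 8.06e-11), with 0.97 ± 0.06 at 10 µM and 1.07 ± 0.05 at 20 µM.

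Tgfbr2 (chr9:116084293-116175360, minus strand) encodes the type II receptor kinase, which binds the ligand and activates the type I receptor. It read 377, 360.0 and 378 CPM in controls and 232, 236 and 232 CPM with dexamethasone. Ginsenoside alone gave 348, 346 and 334 CPM at 10 µM and 331, 355 and 305 CPM at 20 µM, and both agents together gave 213, 204 and 211 CPM and 195, 194 and 198 CPM. The 6 group means ran in the reverse order of those of Tgfbr1, with controls highest and the group with both agents at 20 µM lowest. The 3 dexamethasone groups did not overlap each other, whereas the 10 µM and 20 µM groups without dexamethasone did. Dexamethasone lowered the level 1.59-fold, a log2 change of -0.67 ± 0.05 (adjusted p = 2.28e-09), with -0.71 ± 0.05 at 10 µM and -0.76 ± 0.05 at 20 µM.

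Among the latent binding proteins Ltbp2 fell most and Ltbp1 alone rose. Ltbp2 (chr12:84783212-84876532, minus strand) encodes a matrix protein of this family that associates with elastic microfibrils and, unlike its relatives, is not known to bind latent TGF-beta. It read 125, 127 and 118 CPM in controls, 50.6, 53.0 and 53.4 CPM with dexamethasone and 44.8 to 52.8 CPM with both agents. The ginsenoside groups without dexamethasone spread widely, from 110.3 to 141 CPM, around the control values. Its log2 change was -1.24 ± 0.08 (adjusted p = 5.27e-10), -1.29 ± 0.08 at 10 µM and -1.38 ± 0.08 at 20 µM. Its estimated counts were not whole in any library, which is how RSEM writes reads it divides among features, and the same was so for Tgfbr3 in 72.2%, Ltbp3 in 38.9% and Ltbp4 in 11.1% of libraries. Ltbp2 overlaps the antisense gene D030025P21Rik by 764 bases, and that gene had at most 42 counts in any library.

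Ltbp3 (chr19:5740904-5758532, plus strand), a binder of latent TGF-beta needed for normal bone and tooth growth, read 354, 353 and 346 CPM in controls and 231, 241 and 232 CPM with dexamethasone. All 9 libraries with dexamethasone ranged from 231 to 243 CPM, below the 340.0 to 382 CPM of the others. The log2 change was -0.58 ± 0.05 (adjusted p = 7.20e-09), -0.57 ± 0.05 at 10 µM and -0.63 ± 0.05 at 20 µM. Ltbp4 (chr7:27305136-27337692, minus strand), known in mice as a modifier of muscular dystrophy, read 72.2, 68.9 and 65.5 CPM in controls and 51.7, 56.7 and 52.0 CPM with dexamethasone, with a log2 change of -0.36 ± 0.07 (adjusted p = 0.000251). At 10 µM the change was -0.24 ± 0.07 (adjusted p = 0.00701) and did not pass without replicate 1 of the 10 µM group (adjusted p = 0.0581), and at 20 µM it was -0.37 ± 0.07.

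Ltbp1 (chr17:75005568-75392512, plus strand) encodes the binder best known for storing TGF-beta1 in fibronectin and fibrillin matrix. It read 127, 131 and 131 CPM in controls and 151, 156 and 154 CPM with dexamethasone, a rise of 1.19-fold (log2 0.25 ± 0.05, adjusted p = 0.000247). With both agents it read 137, 146 and 150.4 CPM at 10 µM and 142, 142 and 146 CPM at 20 µM, so all 6 libraries lay between the control and the dexamethasone libraries. Replicate 1 at 10 µM with dexamethasone lay just below replicate 2 of the 20 µM group without it, at 138 CPM. The log2 changes at 10 µM and 20 µM were 0.14 ± 0.05 (adjusted p = 0.0178) and 0.15 ± 0.05 (adjusted p = 0.0137). These 2 smaller calls were lost without the composition factor (log2 0.07 and 0.10, adjusted p = 0.166 and 0.0576). Leaving out 1 library also ended the call at 10 µM (replicates 2 and 3 with both agents, adjusted p = 0.0521 and 0.0898, and replicate 3 of the 10 µM group, 0.0731) and at 20 µM (replicate 1 of the 20 µM group, 0.0742).

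**Figure D2:**
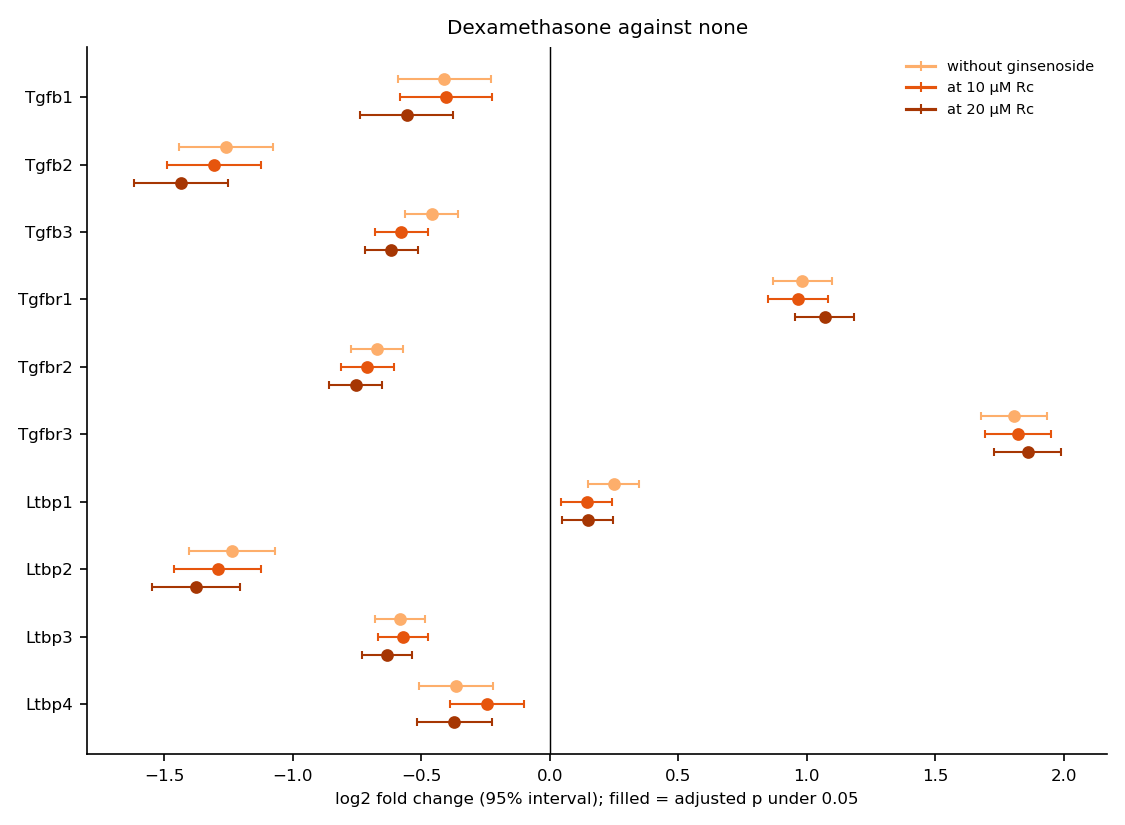
Log2 fold change of each gene with dexamethasone against the matched group without it, with 95% intervals, for cultures without ginsenoside, at 10 µM and at 20 µM. All points are filled (adjusted p under 0.05), and Tgfbr3 (1.81, 1.82 and 1.86) and Tgfb2 (-1.26, -1.31 and -1.43) mark the extremes.

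Scaled per kilobase of merged exons, so that genes could be set beside each other, Tgfb3 was the most abundant ligand in every group. In controls it stood at 123 ± 3.54 CPM per kb (SD, n = 3, as for all levels per kb and shares) against 27.9 ± 1.09 for Tgfb1 and 20.7 ± 0.534 for Tgfb2, and these 3 levels differed by more than their SD. Summed over the ligands the level was 171 ± 4.40 CPM per kb in controls and 119 ± 2.13 CPM per kb with dexamethasone. The share of Tgfb2 in that sum was 12.1 ± 0.190% in controls and 7.26 ± 0.253% with dexamethasone, while that of Tgfb3 was 71.6 ± 0.435% and 75.1 ± 0.709%.

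The receptor sum moved less than its parts. It was 54.7 ± 1.20 CPM per kb in controls and 50.9 ± 0.663 CPM per kb with dexamethasone. Within it the share of Tgfbr2 was 82.9 ± 0.552% in controls, 56.0 ± 1.06% with dexamethasone and 48.9 ± 1.92% with dexamethasone and 20 µM ginsenoside. Over the same groups Tgfbr1 held 12.3 ± 0.537%, 26.2 ± 0.572% and 32.4 ± 1.26%, and Tgfbr3 held 4.74 ± 0.236%, 17.8 ± 0.556% and 18.7 ± 1.17%. Per length, Tgfbr2 exceeded Tgfbr1 by 6.74 ± 0.343 times in controls, 5.60 ± 0.118 at 10 µM and 5.34 ± 0.465 at 20 µM. With dexamethasone the ratio was 2.14 ± 0.0852, and with the ginsenoside added it was 1.76 ± 0.122 at 10 µM and 1.51 ± 0.112 at 20 µM (SD, n = 3). The 3 dexamethasone groups did not overlap in this ratio, with ranges of 2.04 to 2.21, 1.65 to 1.89 and 1.41 to 1.63. Shares and ratios are given as descriptions, since they restate the levels above.

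Among the latent binders the order changed with dexamethasone. Ltbp3 was the most abundant in every group, at 38.7 ± 0.471 CPM per kb in controls and 25.9 ± 0.613 with dexamethasone. In controls it was followed by Ltbp2 (15.1 ± 0.601), Ltbp1 (12.1 ± 0.225) and Ltbp4 (10.7 ± 0.515), and with dexamethasone by Ltbp1 (14.4 ± 0.235), Ltbp4 (8.28 ± 0.428) and Ltbp2 (6.39 ± 0.186). The sum was 76.5 ± 1.40 CPM per kb in controls and 54.9 ± 1.36 with dexamethasone. This sum includes Ltbp2, which, as given above, is not known to bind latent TGF-beta. The places of Ltbp1 and Ltbp2 in controls depended on the length used: Ltbp1 stood at 0.804 times Ltbp2 over merged exons and at 1.07 times over the longest transcript. With dexamethasone Ltbp1 was the higher under both lengths, at 2.25 and 2.98 times Ltbp2.

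**Figure D3:**
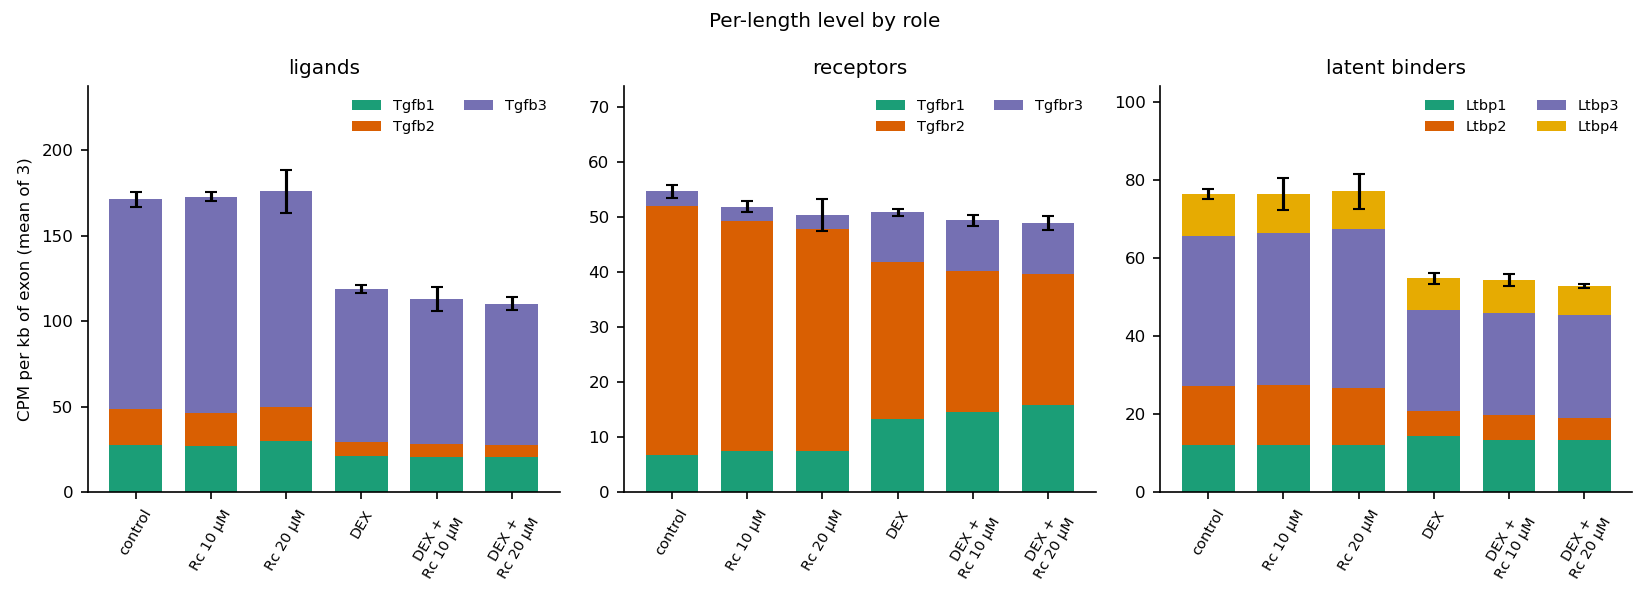
Level per kilobase of merged exons (CPM per kb, linear axis from 0), stacked by gene within ligands, receptors and latent binders, as the mean of 3 libraries per group. Error bars are the SD of the sum, and the receptor bars are 54.7 in controls and 50.9 with dexamethasone while the Tgfbr2 segment shrinks from 45.4 to 28.5 and the Tgfbr1 and Tgfbr3 segments grow with dexamethasone.

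Differences with ginsenoside Rc were small, and in each of the 4 comparisons Tgfbr1 and Tgfbr2 had unadjusted p-values under 0.05, Tgfbr1 at higher and Tgfbr2 at lower values. With dexamethasone present, 20 µM against none gave 1 call among the 10 genes, in a comparison where 0.369% of all genes passed, 0.253% as lower. Tgfbr2 was lower, at 196 ± 2.39 CPM against 233 ± 2.51 CPM (SD, n = 3 each), a log2 change of -0.25 ± 0.05 with a 95% interval of -0.36 to -0.15 and an adjusted p of 0.0287. Tgfbr1 stood at 104 ± 6.43 CPM against 87.1 ± 3.03 CPM, a log2 difference of 0.25 ± 0.05 with an interval of 0.14 to 0.37, just outside the threshold (adjusted p = 0.0505) in edgeR and inside it in DESeq2 (adjusted p = 0.00253). For 7 of the 10 genes the values of the groups were fully separate, against 14.9% of all genes, and the same number had an unadjusted p under 0.05, against 8.75%. Besides the receptors these were Tgfb2 (-0.25), Tgfb3 (-0.12), Ltbp1 (-0.10), Ltbp2 (-0.18) and Ltbp4 (-0.16), all at lower values on the log2 scale, with adjusted p from 0.293 to 0.552. Tgfb1 (-0.03, interval -0.21 to 0.15), Tgfbr3 (0.01, -0.11 to 0.13) and Ltbp3 (0.03, -0.07 to 0.12) had intervals on both sides of 0.

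The call for Tgfbr2 did not hold in 5 of the 18 fits that left out 1 library. It was lost without replicate 1, 2 or 3 of the dexamethasone group (adjusted p = 0.0534, 0.155 and 0.0992) and without replicate 1 or 2 of the group with both agents (0.159 and 0.158), while the log2 change stayed between -0.26 and -0.24 (edgeR). Tgfbr1 passed without replicate 1 of the dexamethasone group (0.0484), replicate 3 of either group with both agents (0.0371 at 10 µM and 0.0132 at 20 µM) or replicate 2 of the 20 µM group (0.0069). The last of these is the library that stood apart, which belongs to neither group compared but enters the shared estimate of spread. Without it 3 of the 10 genes passed, Tgfbr2 (adjusted p = 0.000621), Tgfbr1 and Tgfb2 (0.0129), in a fit where 2.18% of 15618 genes passed.

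At 10 µM with dexamethasone 0 of the 10 genes passed in edgeR, as in DESeq2, where 0.0259% of genes passed in edgeR. An unadjusted p under 0.05 was seen for 2 members and 3.85% of all genes, and separate groups for 2 (Tgfbr2 and Ltbp1) and 10.8%. The small p-values were those of Tgfbr1 (0.13 ± 0.05, interval 0.02 to 0.24) and Tgfbr2 (-0.16 ± 0.05, interval -0.26 to -0.05). Without dexamethasone 0 of 10 passed in either tool at 10 µM, where 0.00648% of genes passed in edgeR, and 2 members had an unadjusted p under 0.05, as 2.54% of all genes did: Tgfbr1 at 0.15 ± 0.06 (0.03 to 0.27) and Tgfbr2 at -0.12 ± 0.05 (-0.22 to -0.02). The groups were separate for these 2 and Tgfb2, 3 members beside 12.1% of all genes. At 20 µM without dexamethasone 0 of 10 passed in either tool, where 0.104% of genes passed in edgeR, and 3 had an unadjusted p under 0.05, as did 9.29% of all genes. They were Tgfbr1 at 0.17 ± 0.06 (0.05 to 0.28), Tgfbr2 at -0.17 ± 0.05 (-0.27 to -0.07) and Ltbp4 at -0.16 ± 0.07 (-0.30 to -0.01), and the groups were separate for Tgfbr1 and Tgfbr2, 2 members beside 11.7% of all genes. Without replicate 2 of the 20 µM group Tgfbr2 passed there, at -0.23 (adjusted p = 0.00996), 1 of 10 where 0.282% of genes passed. The 2 doses share their comparison libraries, so their similar values are not independent.

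Whether the ginsenoside changed the response to dexamethasone was tested directly as an interaction. At 10 µM 0 of the 10 genes and 0 of all 15436 passed in edgeR, with 0 members at an unadjusted p under 0.05 (2.12% of all genes) and 0 in DESeq2. At 20 µM 0 of 10 and 0 of 15436 passed in edgeR, 1 member had an unadjusted p under 0.05 (5.29% of all genes) and 0 passed in DESeq2. That member was Tgfb3, where the 2 responses to dexamethasone differed by -0.16 on the log2 scale (interval -0.30 to -0.01, unadjusted p = 0.0349, adjusted p = 0.885, edgeR). For Tgfbr1 the difference between the 2 responses was 0.09 (interval -0.08 to 0.25) and for Tgfbr2 -0.08 (interval -0.23 to 0.06). The widest intervals were those of Tgfb2 (-0.43 to 0.08) and Tgfb1 (-0.40 to 0.11).

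The mean effect of each dose over cultures without and with dexamethasone was fitted after the separate comparisons had been seen, so it is not independent of them. At 20 µM Tgfbr1 was higher by 0.21 ± 0.04 on the log2 scale (adjusted p = 0.0103) and Tgfbr2 was lower, at -0.21 ± 0.03 (adjusted p = 0.0038, edgeR), 2 of the 10 genes where 1.46% of all genes passed. Both passed in 18 of 18 fits that left out 1 library, with adjusted p from 0.00195 to 0.0386 for Tgfbr1 and from 1.8e-05 to 0.0178 for Tgfbr2. At 10 µM the mean effect passed for 0 of the 10 in edgeR, where 0.0259% of all genes passed, and 3 of the 10 had an unadjusted p under 0.05 beside 4.19% of all genes.

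Without replicate 2 of the 20 µM group, the library that stood apart, all 10 genes still passed for dexamethasone at 20 µM in the same direction. The log2 changes were then -0.42 for Tgfb1, -1.29 for Tgfb2, -0.58 for Tgfb3, 1.06 for Tgfbr1, -0.70 for Tgfbr2 and 1.87 for Tgfbr3. For the latent binders they were 0.20 for Ltbp1, -1.43 for Ltbp2, -0.61 for Ltbp3 and -0.36 for Ltbp4. The difference between 20 µM and control without dexamethasone moved from -0.08 to -0.22 for Tgfb2 (adjusted p = 0.111) and from 0.12 to -0.02 for Tgfb1 (adjusted p = 0.978), neither passing in edgeR. The ratio of Tgfbr2 to Tgfbr1 per length was 5.25 and 4.93 in the other 2 libraries of that group. The interaction at 20 µM passed for 0 of the 10 genes in edgeR and had 0 at an unadjusted p under 0.05, with Tgfb3 at -0.13, Tgfb2 at -0.03 and Tgfb1 at -0.01. The mean effect of 20 µM passed for 3 of the 10 genes where 2.78% of all genes passed, namely Tgfbr1 (0.22), Tgfbr2 (-0.24) and Tgfb2, which moved from -0.16 to -0.23 (adjusted p = 0.00125, edgeR).

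**Figure D4:**
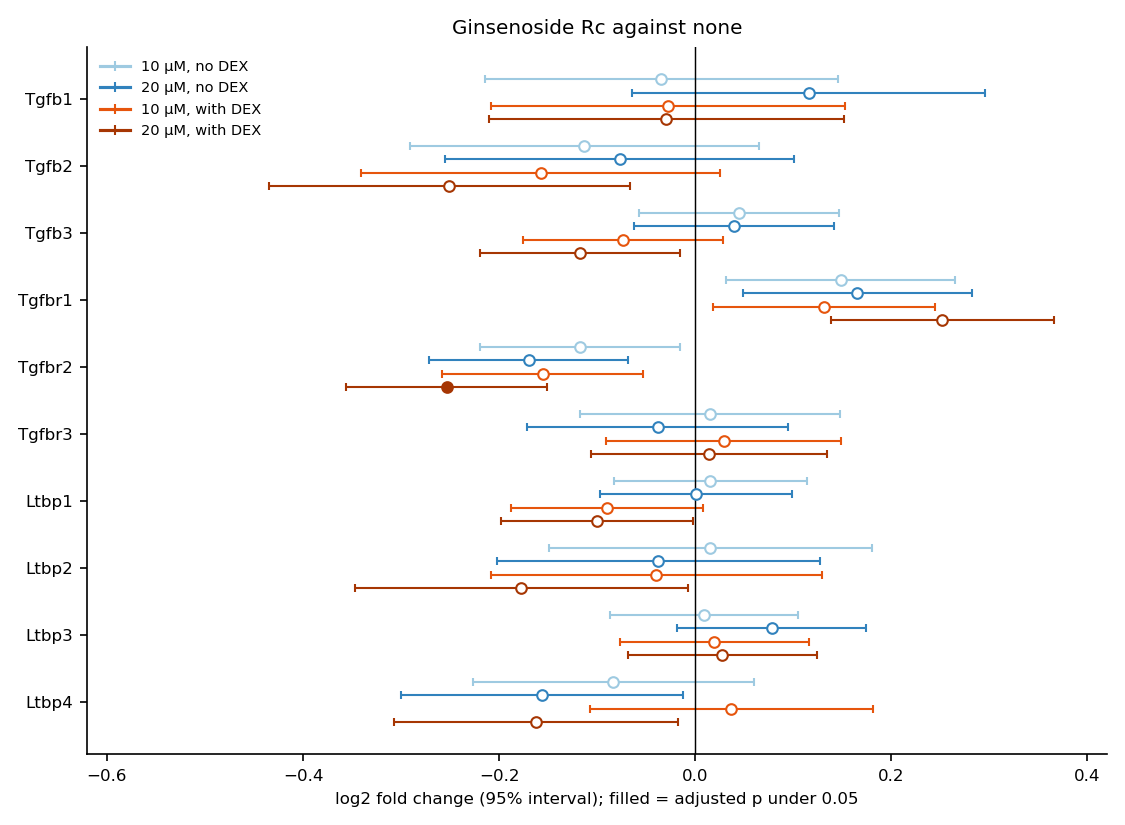
Log2 fold change of each gene with ginsenoside Rc against none, with 95% intervals, at 10 µM and 20 µM without and with dexamethasone. The filled point, Tgfbr2 at 20 µM with dexamethasone (-0.25), is the 1 call, and the 4 intervals of Tgfbr1 lie above 0 and the 4 of Tgfbr2 below it.

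The rest of the pathway was followed through 4 lists of genes, also chosen with earlier results of these data known. The 22 genes listed as signal transducers and inhibitors had a median log2 change of -0.04 with dexamethasone beside -0.01 over all genes. Of them 6 were higher and 6 lower, where 20.6% of all genes were higher and 23.2% lower. Among the 6 higher was Trap1 (0.20 ± 0.04, adjusted p = 0.000417), named after its value was seen. In mouse this symbol denotes a mitochondrial chaperone, so the list held a gene outside the pathway. Smad7, the inhibitory SMAD that the pathway itself induces, read 11.8 ± 0.316 CPM in controls and 5.69 ± 0.558 CPM with dexamethasone (log2 -1.05 ± 0.07, adjusted p = 1.07e-09). Pmepa1, an induced inhibitor that sequesters SMADs, also fell (-0.96 ± 0.12), as did Tgif2, a SMAD corepressor (-0.54 ± 0.11), and Smad3, a receptor-activated SMAD (-0.34 ± 0.05). Smad2 (-0.01 ± 0.06, adjusted p = 0.891), the other SMAD these receptors activate, did not pass and is named after its value was seen. Without the composition factor 1 of the 22 rose and 9 fell, so the even split depends on scaling, while the 4 named falls kept their direction.

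Of 7 other co-receptors, 2 rose and 2 fell, with a median of 0.09, where 43.8% of all genes changed. Nrp1, a neuropilin that binds TGF-beta beside its other ligands, rose (0.47 ± 0.05, adjusted p = 1.19e-07), and Nrp2 rose slightly (0.15 ± 0.05, adjusted p = 0.0279), a call lost without the composition factor (0.09, adjusted p = 0.209). Eng, the endothelial co-receptor endoglin, fell from 4.57 ± 0.372 to 3.24 ± 0.373 CPM (-0.49 ± 0.14). The other gene to fall was Acvrl1, the type I receptor ALK1, named after its value was seen, at under 1 CPM in both groups. Cd109, a membrane protein that binds TGF-beta1, did not pass (0.09 ± 0.06, adjusted p = 0.232).

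Of 27 activators and matrix partners of latent TGF-beta, 24 were tested, and 18 fell while 5 rose (median -0.74 on the log2 scale), where 23.2% of all genes fell and 20.6% rose. Thbs1, thrombospondin-1, which can release TGF-beta from its propeptide, read 1658 ± 32.5 CPM in controls and 419.8 ± 12.1 CPM with dexamethasone (-1.98 ± 0.08, adjusted p = 4.56e-13). Pcsk6, a furin-like convertase (-2.36 ± 0.10), and Plat, tissue plasminogen activator (-1.49 ± 0.06), also fell. Adamts1, a matrix protease reported to activate latent TGF-beta, rose from 37.8 ± 0.632 to 111 ± 6.40 CPM (1.56 ± 0.06). Nrros, Fbn2 and Mmp9 did not reach the count filter. Dcn of this list is also one of the fibroblast markers.

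Of 32 textbook target genes of TGF-beta, 31 were tested, 4 rose and 23 fell, with a median of -0.92, against the same 20.6% and 23.2% of all genes. Col1a1 and Col3a1 of this list are also fibroblast markers, Ltbp2 is itself one of the 10 genes, and Thbs1, Fn1, Smad7, Skil and Pmepa1 also stand in the lists above. Has2, which makes hyaluronan, read 66.0 ± 1.06 CPM in controls and 10.7 ± 1.90 CPM with dexamethasone (-2.62 ± 0.10, adjusted p = 2.54e-13), and Timp3, a matrix-bound inhibitor of metalloproteinases, read 522 ± 18.4 and 90.1 ± 8.42 CPM (-2.53 ± 0.10). Ccn2, connective tissue growth factor, went the other way, from 77.4 ± 0.617 to 382 ± 20.0 CPM (2.30 ± 0.08, adjusted p = 6.13e-14). The other 3 that rose were Postn, Lox and Nox4, named after their values were seen. The summed level of the dividing-cell and fibroblast markers fell in the same libraries, as given above, and their part in these list counts was not tested.

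With ginsenoside, 1 gene of the 4 lists passed in edgeR in any of the 4 comparisons, Plat at 20 µM without dexamethasone (log2 -0.33, adjusted p = 0.0454). That comparison includes replicate 2 of the 20 µM group, and 0 of all genes passed in it when only the groups compared were fitted. Of the 31 target genes tested, 15 had an unadjusted p under 0.05 at 20 µM with dexamethasone, where 0 passed in edgeR and 2 in DESeq2, with a median log2 difference of -0.18. The share over all genes in that comparison was 8.75%.

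**Figure D5:**
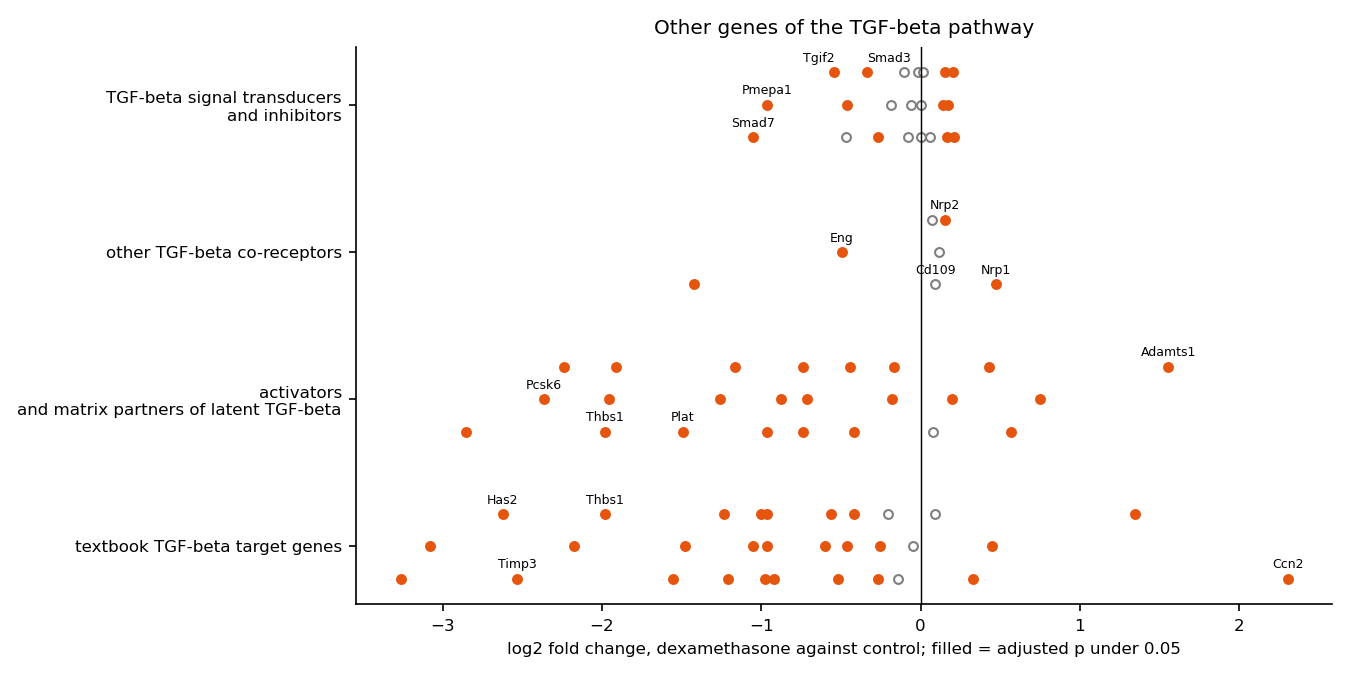
Log2 fold change of the genes of the 4 pathway lists (Trap1, a gene outside the pathway, included) with dexamethasone against control. Each tested gene of a list is 1 point, spread vertically for legibility and filled where the adjusted p is under 0.05. Most points of the lower 2 lists lie left of 0 (18 of 24 and 23 of 31 passed as lower), and Ccn2 (2.30) and Adamts1 (1.56) lie farthest to the right.

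The genes with the most similar course over the 6 group means were sought among 11674 genes, those of the pathway included. Nearness was the mean absolute difference of centred log2 CPM. Nearest to Tgfbr3 were Map3k8, Errfi1 and Trp53inp1, at 0.03 to 0.04. Nearest to Tgfbr1 were Ppp1r12b, Acsl1 and Bcl2l11, and nearest to Tgfbr2 were Vangl2, Palm3 and Runx2, at 0.02 to 0.03. Loxl3, Islr and Fam107a lay nearest to Tgfb2, Sec31a, Tnfrsf23 and Zfpm2 to Tgfb1, and Lman1, Sema3d and Abhd1 to Tgfb3. Pycr1, Ikbip and Ncapg2 lay nearest to Ltbp2, Dnajc9, Gm9833 and Plod2 to Ltbp3, Lpp, Snhg1 and Gchfr to Ltbp4, and Mtor, Acad11 and Wars to Ltbp1. The 6 means come from the same 18 libraries for every gene, and the distances of all these genes ran from 0.00754 to 0.0413.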

How the data were processed

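Poly-A RNA of 18 libraries was sequenced as 100 bp read pairs with a directional kit, per the labels' protocols. The authors deposited expected counts per gene as RSEM estimates them. Per the submitters' processing notes the tools were RSEM 1.3.3, STAR 2.7.3a, Trim Galore 0.6.5 and FastQC 0.11.9, on GRCm38 (mm10). Which annotation release and strand setting were used is not given in the sources used here. The deposited estimated counts (9.27% of values not whole) were rounded. Of 48795 identifiers 48435 had a name in the reference table, and the 360 others held 0.0185% of counts.

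Genes passing filterByExpr were fitted in edgeR 4.0.16 (R 4.3.3), with TMM composition factors, 1 mean per group over all 18 libraries and the robust quasi-likelihood test. P-values were adjusted by the Benjamini-Hochberg method over 15436 genes, with a threshold of 0.05. Standard errors come from the ratio of the log2 fold change to the root of its F statistic, with 95% intervals. CPM are TMM scaled, and levels per kilobase use merged exons. Named genes are the 10, the 4 of each pathway list with the smallest adjusted p in the dexamethasone comparison, list genes that passed with ginsenoside, 4 glucocorticoid targets and the 3 nearest genes to each of the 10; genes chosen by p or nearness had a mean log2 CPM of at least 1. The 10 genes, the lists and the rule were chosen with earlier results of these data known.

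Recovery was checked on simulated data with 50 genes changed at each of 1.25, 1.5, 2 and 4 times and all others unchanged. For dexamethasone against control (15124 genes), 56%, 94%, 100% and 98% were recovered, with 8 false calls. When 20 µM ginsenoside was added to dexamethasone (14986 genes) the shares were 56%, 92%, 94% and 98%, with 7 false calls. In the measured data 43.8% of genes passed with dexamethasone, so the simulated setting differs and its shares need not hold there. Alternatives were DESeq2 1.42.0, other scaling, no filter, only the groups compared, a replicate block and leaving out each library. Same-numbered libraries did not deviate together (correlations from -0.196 to 0.150 over 45 pairs).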

Additional observations from a re-analysis of the deposited data

How the results depend on the processing

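The 10 calls in each dexamethasone comparison held under the other scalings, DESeq2, no filter and the replicate block, with the exceptions of Ltbp1 given above and of Ltbp1 at 20 µM when only the groups compared were fitted (0.14, adjusted p = 0.158); leaving out 1 library gave 9 to 10 calls at either ginsenoside dose. Single values were followed for all 10 genes with dexamethasone. For ginsenoside and the interaction, only genes with an unadjusted p under 0.05 in edgeR were followed. Over these and all settings, 1059 values kept their side of the threshold, 8 newly passed and 13 no longer passed, with 0 reversed in direction. Outside this selection directions could change. For Tgfb1 at 20 µM without dexamethasone the log2 difference was 0.12, and -0.02 without replicate 2 of the 20 µM group. Counts with ginsenoside moved more. At 10 µM without dexamethasone 1 gene of all passed, 5 with DESeq2, 2 without the filter, 8 with only the groups compared and 0 to 3 when 1 library was left out. At 20 µM without dexamethasone 16 passed, with 101, 28, 0 and 5 to 44 under the same settings, and 0 to 1 of the 10 genes when 1 library was left out. At 10 µM with dexamethasone 4 passed, with 16 in DESeq2, 1 with only the groups compared, 1 with the replicate block and 0 to 15 when 1 library was left out. At 20 µM with dexamethasone 57 passed, with 252 in DESeq2, 95 without the filter and 6 to 341 when 1 library was left out, and of the 10 genes 2, 2 and 0 to 3. The interaction at 20 µM had 0 of all genes, 1 in DESeq2, 1 without the filter and 0 to 2 when 1 library was left out. Among the fits that left out 1 library, the highest of these counts came without replicate 2 of the 20 µM group.

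The replicate block gave 6652 genes for dexamethasone against control, 6743 and 7424 at the 2 doses, 12 at 20 µM alone and 62 at 20 µM with dexamethasone, and moved none of the counts among the 10 genes; 5 of 18 libraries correlated best with their own number. With the longest transcript as length, shares in controls were 27.2%, 11.7% and 61.1% for Tgfb1, Tgfb2 and Tgfb3, 13.6% and 81.5% for Tgfbr1 and Tgfbr2, and 17.4%, 16.3%, 54.9% and 11.5% for Ltbp1 to Ltbp4. With dexamethasone they were 29.3%, 6.97% and 63.7%, 28.2% and 53.7%, and 28.2%, 9.47%, 50.2% and 12.2%. Without the composition factor, control levels were 123 CPM for Tgfb2, 382 for Tgfbr2, 133 for Ltbp1 and 361 for Ltbp3, and dexamethasone levels 229 for Tgfbr2 and 151 for Ltbp1. The cause of these shifts was not tested beyond the changed length or scale itself.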
